A study of Drosophila melanogaster with 12 samples.

Results

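Of 12759 protein-coding genes in whole female Drosophila melanogaster, 150 carried an abundant mRNA and the fewest ribosome footprints for it. They were chosen by measured wild-type values. The counts of a gene's transcripts were summed and scaled to counts per 1000000 protein-coding counts of each library (CPM), and the 6459 genes with a mean wild-type mRNA level of at least 20 CPM were ranked by (mean footprints + 1)/(mean mRNA + 1). The 150 lowest were taken (2.32% of the ranked genes). The ratio is written here as a percentage, so 100% means an equal share of the footprints and of the mRNA. It ran from 0.372% in mt:ND1 to 13.47% in CG1896, and its median was 9.54% in the members and 77.4% in all ranked genes. The low wild-type ratio is the selection itself and was not tested.

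The study set wild-type females (White Dahomey, the outbred Dahomey background) beside females of that background with a P-element inserted in 1 of the copies of Polr3D (genotype dC53EY22749, here Polr3DEY/+), which encodes a subunit of RNA polymerase (Pol) III. Homozygotes do not survive, so every mutant library comes from flies that still carry a wild-type copy. Ribo-Seq, the sequencing of RNA fragments that ribosomes protect from nuclease, and RNA-Seq were run on whole flies under each genotype. The table held 3 Ribo-Seq libraries of each genotype, 2 wild-type and 3 mutant RNA-Seq libraries. The labels do not say whether replicates came from separate cultures, so p-values measure the spread between these samples, which may be technical. No age is stated for the flies of these libraries in the sources used here.

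A ribosome covers a short stretch of the mRNA it translates, so the number of footprints on a message depends on how often ribosomes load and how long they stay. In the ovary many messages are stored without being translated: proteins that bind their 3′ untranslated region (UTR) hold them silent until the egg or embryo needs the protein. Mitochondrial messages are translated inside the organelle by a separate kind of ribosome, and genes whose exons coincide share sequence that short reads cannot assign to one of them.

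Footprint libraries held 1127599 to 3192166 protein-coding counts (1.90% to 3.67% of their totals) and RNA-Seq libraries 24299908 to 28718489. The limit that a count of 0 allows, 3 counts, is 0.940 to 2.66 CPM in the footprint libraries, which covers counting error only. The 150 genes took 7.11% to 8.76% of the mRNA counts and 0.164% to 0.206% of the footprints in each library. Footprints were few: 32 members had at most 10 in the wild-type libraries together, and 12 had none there, of which 10 had none in any of the 6 footprint libraries. Markers of the ovary, eggshell, fat body, midgut and muscle were all present in the RNA libraries, and the summed testis markers did not exceed 1.07 CPM in any, while those of the male accessory gland reached 16.8 CPM in 1 mutant library. In whole flies, fewer cells of a type and less RNA per cell cannot be told apart. Polr3D mRNA, the check of the genotype labels, was 51.7 and 63.6 CPM in the wild-type libraries and 30.5, 29.6 and 30.5 CPM in the mutants, a log2 change of -0.92 ± 0.25 (SE, DESeq2 adjusted p = 0.0294). Leaving out any one replicate kept the change at -0.94 to -0.89 but ended this call (adjusted p from 0.14 to 1).

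**Figure D1:**
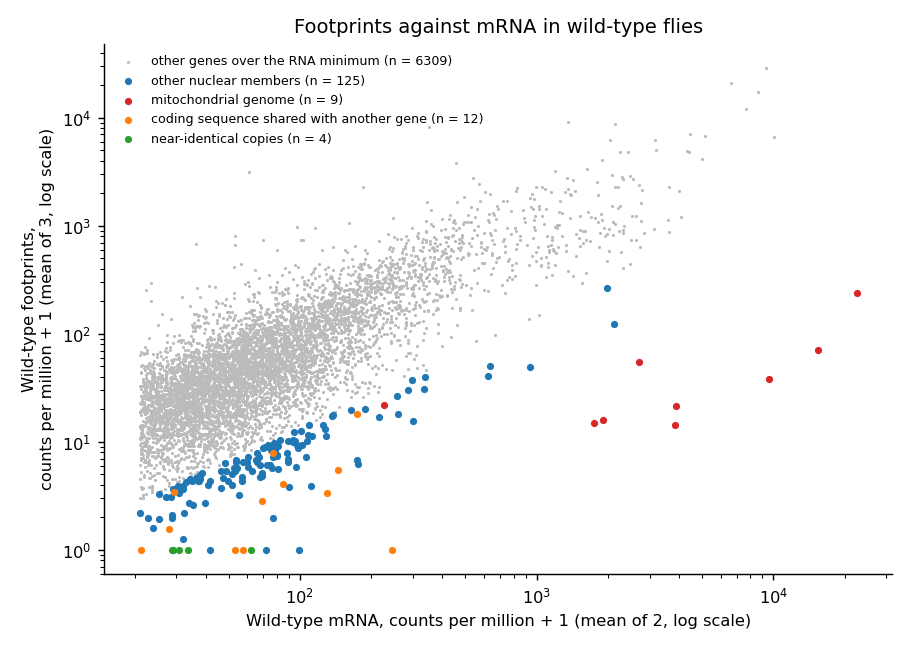
Mean wild-type footprints (y, CPM + 1, log scale, 3 libraries) against mean wild-type mRNA (x, CPM + 1, log scale, 2 libraries), one point per gene over the mRNA minimum. The 150 members, coloured by kind, form the lower edge; the mitochondrially encoded genes other than mt:ND3 lie far below the other genes of like mRNA level, and points at 1 on the y axis had no footprint.

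The most abundant members were encoded by the mitochondrial genome, which supplies core subunits of the respiratory chain and of ATP synthase. Of 13 such genes 10 were over the mRNA minimum, and 9 of these were members: mt:ND1, mt:Cyt-b, mt:CoIII, mt:ATPase6, mt:ND5, mt:ND4, mt:CoI, mt:CoII and mt:ND3, with ratios of 0.372% to 9.68% (median 0.827%). The tenth, mt:ND2, had a ratio of 17.6%. Together the 9 took 5.35% to 7.04% of all protein-coding mRNA counts and 0.0324% to 0.0561% of the footprints.

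Among them mt:CoI, subunit I of cytochrome c oxidase, was the most abundant, at 26218 and 18774 CPM of mRNA in the wild-type libraries and 20241, 22046 and 19663 CPM in the mutants. Its footprints were 185, 271 and 256 CPM in the wild-type libraries and 271, 162 and 230 CPM in the mutants. The footprint and mRNA values did not overlap in any library. In the mutant libraries, which the choice of members did not use, the log2 difference of mt:CoIII footprints from its mRNA was -8.12 ± 0.16, and that of mt:ND3, which had the highest ratio of the 9, was -2.84 ± 0.24 (SE, DESeq2 adjusted p = 4.10e-30).

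**Figure D2:**
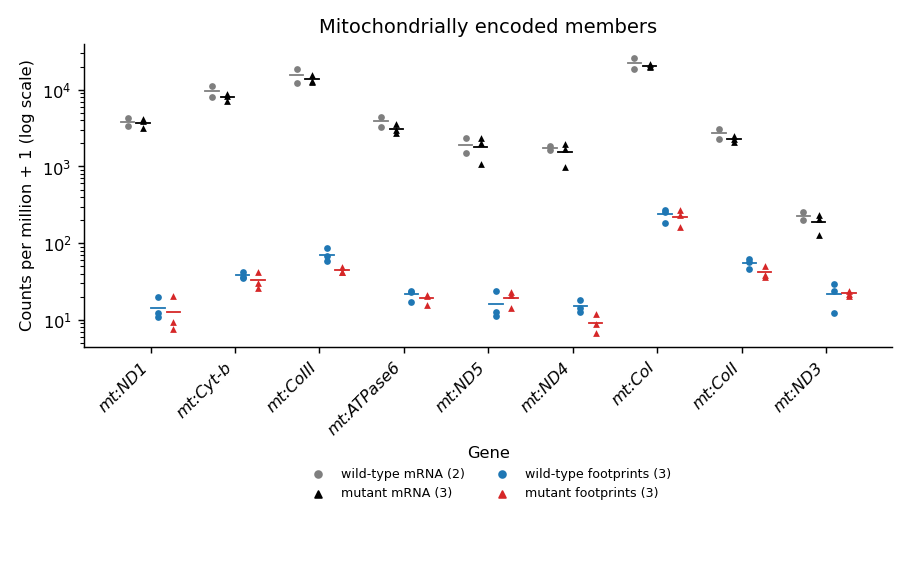
CPM + 1 (y, log scale) of the 9 mitochondrially encoded members in each library (circles, wild-type; triangles, Polr3DEY/+; grey and black, mRNA; blue and red, footprints), with bars at the group means. In every gene the footprints of all libraries lie below the mRNA values.

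A further 12 members had at least 50% of their coding sequence inside the same-strand exons of another protein-coding gene. Their ratios had a median of 4.41%. For sea, a mitochondrial carrier gene whose exons overlap those of fabp (a fatty acid binding protein), the table gave 7202 and 5666 mRNA counts and no footprint in wild-type flies, against 28565 and 22832 mRNA counts and 1713, 1358 and 1790 footprints for fabp. In ImpL2, a secreted binding protein of insulin-like peptides, all mRNA counts (1377 and 1350 in wild-type flies) went to ImpL2 and all footprints (95, 80 and 67) went to CG46460. When the members and their partners were summed, the ratio was above the limit of 13.47% in 11 of the 12 loci, for example 101% for sea with fabp, 118% for ImpL2 with CG46460, 59.6% for CG46463 with armi, 53.4% for CG33095 with CG33096 and 31.0% for ssp2 with Nxf3. Only CG33199 with CG8229 stayed under it, at 12.7%.

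Footprints of some of these genes came and went between libraries. ssp2 had 20, 0 and 0 footprints in the wild-type libraries and 23, 49 and 0 in the mutants, with 3736 to 4119 mRNA counts throughout. lama had none in wild-type flies and 26, 63 and 0 in the mutants, so its mutant ratio was 88.6%. Its partner CG46456 had 58, 29 and 35 footprints in wild-type flies and 4, 23 and 25 in the mutants.

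A different set of 4 members belongs to families of copies known to be near-identical, though their sequences were not compared here. His2A:CG31618, a histone H2A gene, had 52.99 and 69.3 CPM of mRNA in wild-type flies and no footprint in any library, and the 4 H2A genes summed had a ratio of 126%. The sums were 100% for CG30031 with its 3 trypsin copies, 112% for CG32500 with its 4 copies and 226% for BaraA2 with BaraA1, which encode peptides of the immune response. BaraA2 had 0 and 1600 mRNA counts in the wild-type libraries and 0, 72 and 0 in the mutants, so its membership rested on wild-type replicate 2. Summed over partners or copies, 15 members moved above the limit, which leaves 135; this summing was chosen after seeing the data.

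**Figure D3:**
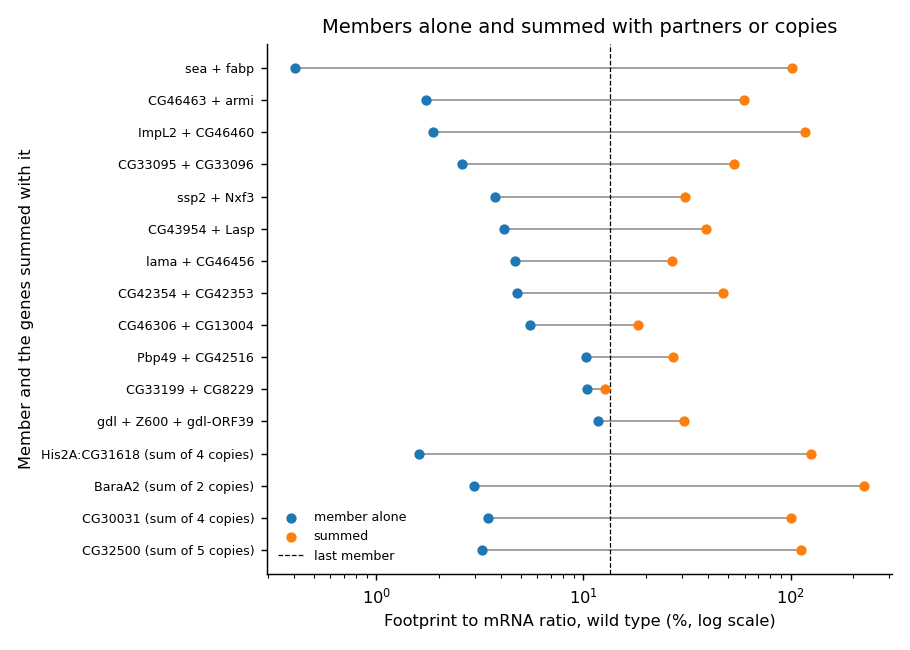
Wild-type footprint to mRNA ratio (x, %, log scale) of 12 members that share coding sequence with another gene and 4 that have near-identical copies, alone (blue) and with the named genes or copies summed (orange). The dashed line marks the last member at 13.47%; 15 of the 16 sums lie to its right.

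The other 125 members were nuclear genes placed in neither kind. Counted here are osk, which shares coding sequence with a noncoding gene, and CG17162. The coding sequence of CG17162 lies 99.6% inside CG17159, a gene not analysed here. Copies were examined only in the families named above and were not searched for among these 125. The 125 had a median ratio of 10.3% in wild-type and 11.2% in mutant flies. Among them the list with the most members was that of maternal mRNAs known to be translationally repressed in the ovary or early embryo: of 17 over the mRNA minimum, 8 were members (bcd, stg, pgc, osk, smg, nanos, cad and CycB). The median ratio of the 17 was 14.7%. bcd, the anterior determinant, had 74.0 and 78.2 CPM of mRNA and 1.34, 0.887 and 0.763 CPM of footprints in wild-type flies (2, 1 and 1 counts). In the mutants its footprints were 1.76, 0.940 and 2.52 CPM and its mRNA 69.9, 84.4 and 71.0 CPM. Wild-type and mutant values of bcd overlapped in each assay.

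osk, which assembles the germ plasm at the posterior pole, had 823 and 1042 CPM of mRNA with 49.5, 55.9 and 39.7 CPM of footprints in wild-type flies. The mutants had 890 to 998 CPM of mRNA and 19.3, 37.6 and 26.1 CPM of footprints, all 3 below the lowest wild-type value. How many members or ranked genes separate in this way was not counted, and osk footprints were not called between genotypes (DESeq2 adjusted p = 0.220). A noncoding gene on the same strand, lncRNA:osk, overlaps 78.5% of the osk exons and 67.1% of its coding bases. It had no footprint in wild-type flies and 15, 0 and 0 counts in the mutants; summed with it, osk had mutant footprints of 32.5, 37.6 and 26.1 CPM, still below the wild-type values, and a wild-type ratio of 5.28% (a sum chosen after seeing the data). CycB, cyclin B, was the most abundant of the 8, at 1870 and 2115 CPM of mRNA and 168, 335 and 287 CPM of footprints in wild-type flies.

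In the mutant libraries all 8 were lower in footprints than in mRNA (DESeq2 adjusted p under 0.1), as were 41.5% of the ranked genes. The log2 difference was -5.42 ± 0.61 for bcd, -4.82 ± 0.23 for osk, -4.12 ± 0.33 for stg, the Cdc25 phosphatase that opens mitosis, and -3.89 ± 0.26 for pgc, which silences transcription in the germ cells. It was -3.60 ± 0.22 for smg, the repressor of nanos mRNA, -3.21 ± 0.19 for nanos, the posterior determinant, -2.95 ± 0.11 for CycB and -2.65 ± 0.24 for cad, a homeodomain factor. Of these cad was the only one not called lower by more than 4-fold (DESeq2 adjusted p = 0.183), a call made in 1.81% of the ranked genes. Other genes of the list lay just above the limit, such as CycA (14.7%) and gcl (17.9%), and others far above it, such as plu (67.0%) and png (66.3%).

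**Figure D4:**
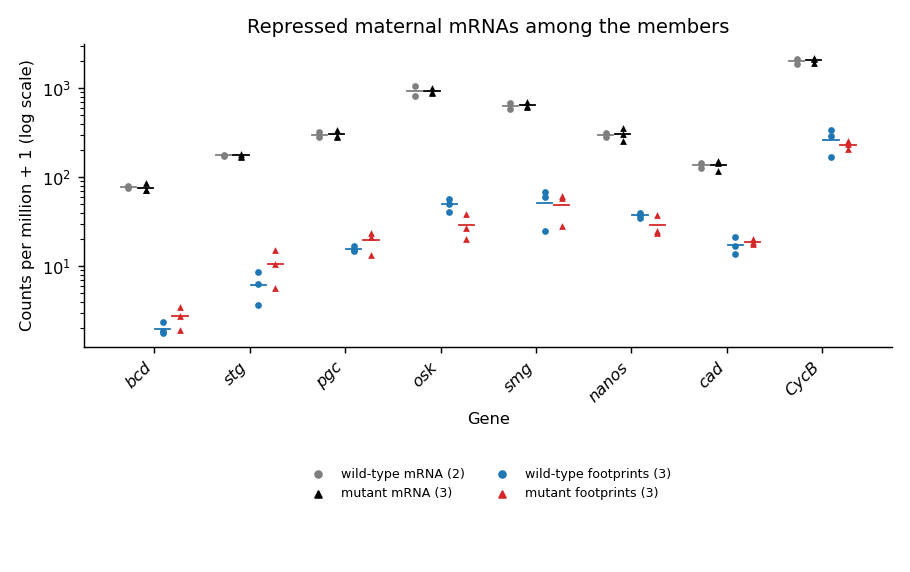
CPM + 1 (y, log scale) of the 8 repressed maternal members in each library (circles, wild-type; triangles, Polr3DEY/+; grey and black, mRNA; blue and red, footprints), with bars at the group means. Footprints lie below the mRNA in every gene. Among these 8 genes only osk has its 3 mutant footprint values all below the wild-type ones, a change not called (DESeq2 adjusted p = 0.220).

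Sorted by known role, and named after their values were seen, 54 of these 125 members were placed in 6 groups, and the other 71 in none. The roles were not looked up over the ranked genes, so the groups describe these members and are not shown to be particular to them. Axis and germ plasm genes (7: bcd, osk, pgc, nanos, smg, cad and gus) had a median ratio of 6.58%, and cell cycle and checkpoint genes (7: stg, CycB, the checkpoint kinases grp and lok, the securin pim, bora and pbl) a median of 9.46%. Germline genome maintenance genes (4: rhi, mus302, Brca2 and tef) had a median of 11.4%. Transcription and chromatin genes (11, among them z, pho, crm, Hr39, RYBP, corto and the pair insv and Elba2) had a median of 10.6%. Signalling and vesicle traffic genes (19, among them Axn, dx, Vang, dgo, Rab23, Mtl, the apoptosis inhibitor Diap2 and the TOR pathway inhibitor chrb) had a median of 9.60%. Enzymes of sugar transfer (6: rt, oxt, GalT1, beta4GalNAcTA, PIG-Q and Gnptab) had the highest median of these groups, 11.9%, on the lowest mRNA levels, a median of 31.0 CPM.

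A few more members are named here, of which only RpS29 and nAChRalpha4 were compared with the other genes of a list. RpS29, a protein of the small ribosomal subunit, was the only one of 86 cytosolic ribosomal protein genes over the mRNA minimum that was a member: its ratio was 5.85% against a list median of 45.1%. It had 2218 and 2018 CPM of mRNA and 134, 109 and 125 CPM of footprints in wild-type flies, and in the mutants 2634, 2018 and 2018 CPM of mRNA and 113, 103 and 119 CPM of footprints. Its coding sequence is 168 nucleotides long. cta, a G protein alpha subunit that acts in gastrulation, had 186 and 162 CPM of mRNA and 7.35, 6.21 and 3.82 CPM of footprints in wild-type flies. Sps2, a selenophosphate synthetase, had a ratio of 6.79%. nAChRalpha4, a nicotinic acetylcholine receptor subunit, was the only member among the 4 genes of the neuronal channel list over the mRNA minimum (ratio 8.62%). CG40472, CG32939, Tsp42Eb and CG31687 had no footprint in any library, on mean wild-type mRNA of up to 97.8 CPM, and CG17163 had 1.34, 4.43 and 3.05 CPM of footprints on 112 and 109 CPM of mRNA. No member belonged to the lists of sex determination, circadian clock, synaptic adhesion, splicing factor, heat shock or glycolytic genes. In that order, these lists held only 9, 8, 7, 11, 9 and 12 genes over the mRNA minimum. Members were 2.32% of the ranked genes, so no member is the likely outcome for lists of this size.

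The members just inside the limit were Pof, CG7101, CG4880, CycB and CG1896, at 13.2% to 13.5%, and those just outside were E(var)3-9, Mlc2, CG17698, swa and Rab30, at 13.5% to 13.6%. Across the limit there was no gap, so the number of members is a matter of the chosen count.

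The transcript with the highest mRNA of each gene had a median coding sequence of 1133 nucleotides in the members and 1365 in all ranked genes, a median 3′ UTR of 415 against 229 and a median 5′ UTR of 182 against 132. The median share of the transcript that is coding was 64.1% against 76.4%. Since RNA-Seq counts come from the whole transcript and footprints mainly from the coding part, the ratio was also formed per kilobase of coding sequence and of transcript. By this ratio 110 of the 150 genes were again among the lowest 150. Of the repressed maternal members, nanos (rank 240), cad (217) and CycB (183) were not. RYBP moved to rank 1032 (50.9%) and chrb to rank 1976 (74.4%), against a median of 109% in the ranked genes. CG46306, whose coding sequence lies inside CG13004, moved furthest, to rank 4091 (137%), which is above that median. Some other gene's exons on the same strand overlapped 18.7% of the members and 7.03% of the ranked genes. On the mitochondrial genome 90% of the ranked genes were members, on chromosome 4 it was 3 of 52, and on the other chromosomes 1.80% to 2.44%.

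In the mutant libraries, which were not used to choose the genes, the low ratio was seen again. The median ratio of the members was 10.1% in the mutants against 75.8% for all ranked genes, 149 of the 150 lay below the latter, and 111 of the 150 would have been chosen from the mutant libraries alone. Footprints were lower than mRNA (DESeq2 adjusted p under 0.1) in 148 of the 150 members, where 29.0% of all tested genes and 41.5% of the ranked genes were called lower. The exceptions were lama (log2 -0.74 ± 1.66, adjusted p = 0.734) and BaraA2 (log2 2.90 ± 3.95, adjusted p = 0.561), described above. Footprints were lower by more than 4-fold in 91 of 149 members tested, against 1.47% of all tested genes and 1.81% of the ranked genes. With one mutant replicate left out this count was 47 without replicate 1, 46 without replicate 2 and 58 without replicate 3. For these smaller fits the share of all genes called was not counted. The member counts of this paragraph include the mitochondrial genes and the members with shared coding sequence or copies. Of the other 125 nuclear members, 74 were called lower by more than 4-fold, and 88 were among the 150 ranked genes lowest in the mutants.

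**Figure D5:**
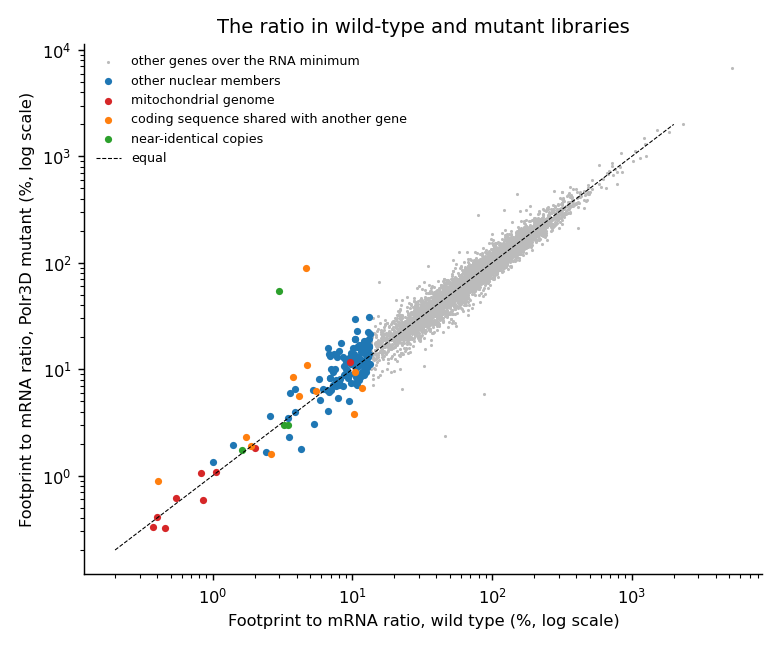
Footprint to mRNA ratio in the Polr3DEY/+ libraries (y, %, log scale) against that in wild-type libraries (x, %, log scale), one point per gene over the mRNA minimum. Members lie along the line of equal ratio at the low end, and lama (88.6%) and BaraA2 (54.5%) are the members far above it.

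The comparison of genotypes shares its wild-type libraries with the choice of members, so its counts are a description. No member was called (DESeq2, adjusted p under 0.1) for mRNA, where 1.02% of all genes were called, for footprints (0.362%) or for translation efficiency, the change of footprints beyond that of mRNA (0.303%). At an unadjusted p under 0.05 there were 4, 9 and 4 of the 150 members. Over all tested genes there were 231 of 13253, 420 of 14368 and 237 of 13533. edgeR called 1 member for mRNA (BaraA2), 2 for footprints (CG42354 and lama) and 1 for translation efficiency (lama). All of these are genes with copies or shared exons, and the edgeR calls over all genes were not counted here.

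The median log2 change of the members was 0.01 for mRNA, 0.12 for footprints and 0.14 for translation efficiency, and 0.01, -0.01 and -0.02 in the ranked genes. A ratio chosen for being low in wild-type flies is in part higher elsewhere by that choice. The ratio was higher in the mutants than in wild-type flies in 62% of the members and 43.0% of the ranked genes. osk had the smallest adjusted p for footprints, at a log2 change of -0.82 ± 0.25 (DESeq2 adjusted p = 0.220), and for translation efficiency, at -0.87 ± 0.30 (adjusted p = 0.733). stg moved the other way, at 1.17 ± 0.62 for translation efficiency (adjusted p = 0.9998), on 2.67, 5.32 and 7.63 CPM of footprints in wild-type flies and 9.65, 4.70 and 14.3 CPM in the mutants, which overlap.

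A few calls depended on one library. Without mutant replicate 1, mt:ND5 (log2 -1.11) and mt:ND4 (-0.89) were lower in mutant mRNA, and without wild-type replicate 1 they were at -1.05 and -0.87 and mt:ND4 footprints at -1.62. mt:ND5 mRNA was 1492 and 2340 CPM in wild-type flies and 2026, 1080 and 2332 CPM in the mutants: wild-type replicate 1 and mutant replicate 2 were both low. Without mutant replicate 3, lama and CG42354 were higher in mutant footprints and translation efficiency, and without mutant replicate 2, osk was lower in mutant footprints (-1.07). In the footprint comparison only 28 members received an adjusted p without wild-type replicate 1, and 18 without mutant replicate 2.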

How the data were processed

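Ribo-Seq and RNA-Seq were made from whole female flies at CD Genomics, with RNase I digestion and, per the labels, cycloheximide. The authors trimmed reads with cutadapt and quantified them with Salmon on a BDGP6 transcriptome that included noncoding RNAs. The deposited values are estimated counts per transcript, rounded to whole counts and not normalised, in 11 libraries; no column was left unassigned (0 unused). Salmon divides reads between transcripts of like sequence by a model, so counts of overlapping or copied genes are uncertain.

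Counts of 28367 features were summed per gene with the Ensembl annotation, release 115, which lacked 26 of them. The tests used gene counts in DESeq2 1.42.0 (two-sided Wald test, Benjamini-Hochberg adjustment over all genes, adjusted p under 0.1), because the study's methods use DESeq2 with the replicate number, genotype, assay and their interaction. The study removed wild-type replicate 3 after inspecting its RNA-Seq library; the genotype model here also left out the Ribo-Seq library of that replicate, which the table holds, and 11 libraries were an alternative. The assay effect was fitted to the 6 mutant libraries, with a second call for lower by more than 4-fold. The alternatives were edgeR 4.0.16, TMM factors, no replicate block, a filter of 10 counts, other pseudocounts, other minimums and left-out replicates. The translation efficiency tests of both tools and the assay effect in DESeq2 were tested on simulated data. The call for lower by more than 4-fold was not tested there. Nuclear members had a median of 5 to 17 footprint counts in each library, and recovery at counts this low was not tested. Same-numbered libraries did not deviate together in these counts. The deviations of the 2 wild-type RNA-Seq libraries necessarily mirror each other and footprints are few. Whether the numbers pair the libraries could therefore not be decided.

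The members and gene lists were chosen with earlier results of these data known, and nos was respelled nanos to match the annotation. Named were Polr3D, the 25 members with the lowest ratio, the 10 with the most mRNA, every member in a gene list, the 5 on each side of the limit, members called between genotypes and members not called lower in the mutants; others are named as examples of a role, after their values were seen.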

Additional observations from a re-analysis of the deposited data

How the results depend on the processing

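Of the 150 genes, 139 were chosen again with a pseudocount of 0.1 and 121 with 5, and 126 to 131 with one wild-type replicate left out; taking the single transcript with the most mRNA of each gene in place of the gene's sum kept 12, and the cause was not tested. In the mutants, 148 members were called lower in footprints; the count was 144 to 146 with one mutant replicate left out, and 83 of 84 tested with a filter of 10 mean counts in each assay. Lower by more than 4-fold were 91 members, 139 with edgeR, 54 of 76 tested with that filter and 46 to 58 with one replicate left out. The edgeR p-value for this call was divided by 2, which makes it more lenient than the DESeq2 test, so 91 and 139 are not alike. In these alternatives the share of all genes called was not counted. TMM factors moved the median log2 difference of all ranked genes from -0.18 to -0.30. Without the replicate block, 148 members were called lower, 105 by more than 4-fold, and 1 member (Tsp42Eb) was called between genotypes for mRNA, against 0 with the block; the replicate block changed no other count of members between genotypes. Other counts of members called between genotypes were 0 to 2: edgeR gave 1 for mRNA, 2 for footprints and 1 for translation efficiency, and leaving out one replicate gave 0 to 2 for each. For footprints, only 18 members received an adjusted p without mutant replicate 2, and 28 without wild-type replicate 1. The share of all genes called with a replicate left out was not counted. BaraA2 turned from a log2 difference of 2.90 to -7.31 with edgeR, -2.66 without the replicate block, -0.70 without mutant replicate 1 and -0.79 without mutant replicate 3; the cause was not tested. With the longest coding sequence as the transcript, the medians were 1199 coding nucleotides, a 5′ UTR of 182 and a coding share of 65.9%. The median log2 ratio of the members in the mutants was -3.30 with a pseudocount of 1, -3.47 with 0.1 and -2.72 with 5. Depth limits the footprint side: 32 members had at most 10 wild-type footprints in all, and for the 12 with none the footprint level is known only as below the limit that a count of 0 allows.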
